A study of Mus musculus with 24 samples.

Results

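The genes described here are 8 components of the Notch pathway, namely the receptor Notch1, the ligands Dll1, Dll3 and Jag1, the glycosyltransferase Lfng and the transcription factors Hes1, Hes5 and Hes6. They were chosen by exact gene symbol in the annotation of the array, and all 8 were found among the 12393 genes with a symbol of their own. Each gene was read from its brightest probe set, by mean over the 24 arrays, on a scale of log2(intensity + 16), called the log2 level. The deposited values cover mouse tissue and mouse medulloblastoma (MB) cell lines, hybridised to Affymetrix arrays. The tissue samples are 3 primary MB from adult Ptch1 mutant mice, 2 wild-type cerebella taken at P6 (postnatal day 6) and 1 wild-type adult cerebellum. The cultured samples come from 3 lines, SMB21, SMB55 and SMB56, each grown out of a spontaneous tumor of a Ptch+/- mouse and kept as neurospheres in DMEM/F12 with B27. All 18 culture samples therefore carry the Ptch1 mutation, and so do the parental cultures that serve as their controls. RAS transformed cells (RAS) were hybridised to 7 arrays, with 3 from SMB21 and 2 from each of the other lines. The 3 growth factor arrays (GF) are 1 per line, from parental cells held for longer than 3 weeks in EGF and bFGF, each at 20 ng/mL, with heparin. Parental cells fill 8 arrays, with 4 from SMB21 and 2 from each of the other lines. The labels do not give the RAS gene, the vector or whether a transformed culture is 1 clone. P6 replicate 2 has an age label that disagrees with its title, and it was grouped by title. Replicates are named biological in the titles, but no label ties one to an animal or a culture, and p-values therefore measure the spread between these samples.

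Notch receptors are transmembrane proteins that are cut when a Delta or Jagged ligand on a neighbouring cell binds them. The freed intracellular domain joins the DNA-binding protein Rbpj and Mastermind proteins and switches on repressors of the Hes family, which in turn hold down proneural genes such as Atoh1. In the developing cerebellum the pathway is known for keeping granule neuron precursors undifferentiated and for promoting the formation of Bergmann glia. Among the genes here, Dll1 and Jag1 activate receptors on neighbouring cells, Dll3 acts within the cell on receptors of the same cell, Lfng adds sugar to Notch and changes which ligand it answers to, Hes1 and Hes5 are Notch targets, and Hes6 is known to counteract Hes1 and to promote neuronal differentiation.

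Over the whole series, array medians lay between 188.8 and 245.1 intensity units, and the lowest single value was 9.98. The median gene had a mean log2 level of 8.36, and 5 of the 8 genes lay above it. Dusp6, a feedback phosphatase induced by ERK signalling, had log2 levels of 12.81 to 14.10 in RAS cells, 12.19 to 13.23 in GF cells and 9.81 to 11.41 in parental cells, so that both treated groups lay above the parental range. Nras spanned 10.50 to 11.93 in RAS cells and 11.30 to 12.36 in parental cells and did not mark the transformed samples. Ptch1 spanned 9.88 to 12.06 in RAS cells and 10.84 to 12.37 in parental cells. Marker genes bore out the tissue labels: the summed intensity of 4 Purkinje cell markers was 898 to 1404 in MB, 39009 to 39711 in P6 cerebellum and 83923 in adult cerebellum. Summed microglial and macrophage markers were 208 to 313 in RAS cells, 252 to 281 in GF cells and 221 to 284 in parental cells, against 5133 to 8017 in MB. In bulk samples of this kind, fewer cells of a type and less RNA per cell cannot be told apart. The plot of levels by sample shows every array.

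**Figure D1:**
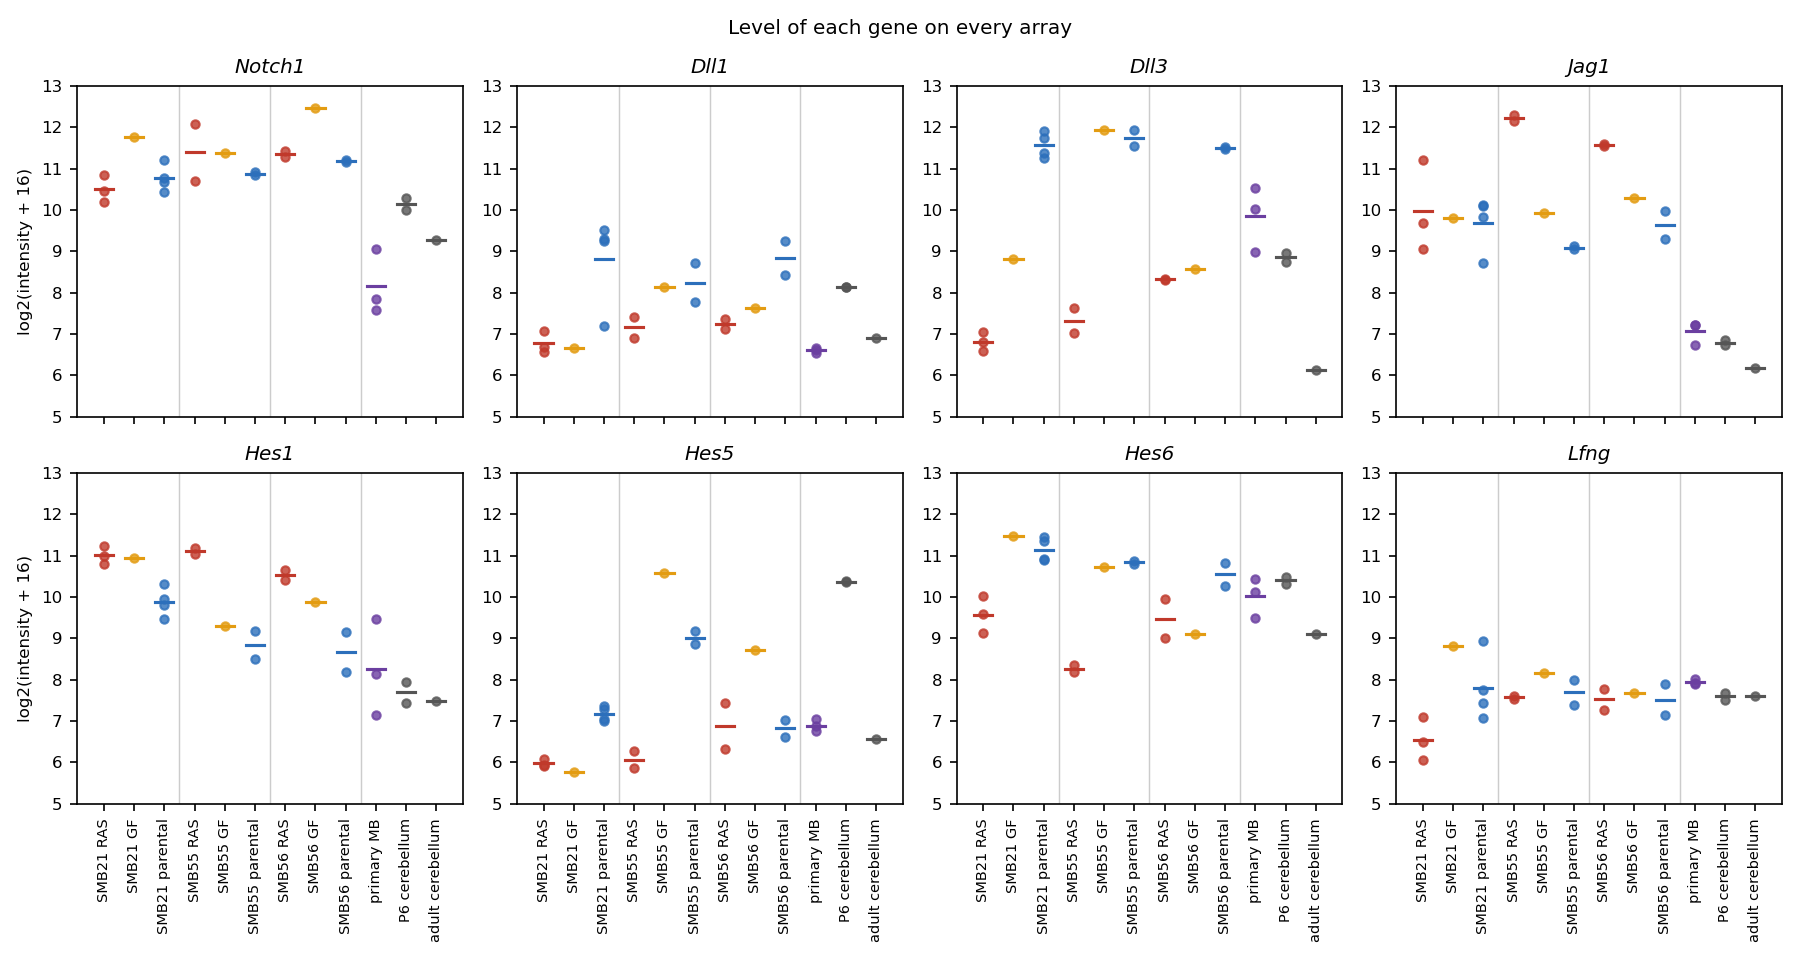
Log2 level, log2(intensity + 16), of the 8 genes on all 24 arrays, with 1 panel per gene, 1 point per array and a bar at each group's mean. Dll3 is lower in all RAS arrays (6.60 to 8.34) than in all parental arrays (11.25 to 11.92), while Hes1 is higher in all RAS arrays (10.41 to 11.23) than in all parental arrays (8.18 to 10.32).

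The first comparison asked how primary tumors differ from the developing cerebellum. Notch1, Dll1 and Hes5 were lower in MB than in P6 cerebellum, by 3.98-fold, 2.90-fold and 11.2-fold on the log2(intensity + 16) scale, which understates changes of dim genes. None of the 8 genes was called higher. The 3 calls of 8 stand beside a background of 11% of all genes called in either direction, 6.68% lower and 4.3% higher (limma, adjusted p under 0.05). The median difference of the 8 genes was -0.06, against 0.05 over all genes.

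Notch1, the receptor, had log2 levels of 7.57, 9.05 and 7.86 in the 3 MB, against 10.30 and 10.01 in the 2 P6 cerebella. All 3 tumors lay below both P6 samples, and tumor replicate 2 was the closest to them. The difference was -1.99 (SE 0.41, adjusted p = 0.0269). It did not pass without P6 replicate 1 (adjusted p = 0.174), P6 replicate 2 (0.147), MB replicate 1 (0.0509) or MB replicate 3 (0.0804). The second Notch1 probe set differed by -0.78 and did not pass (adjusted p = 0.084). The adult cerebellum, at 9.27, lay between the tumors and the P6 samples.

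Dll1, a ligand that activates Notch on adjacent cells, was at 6.53, 6.63 and 6.67 in MB, against 8.15 and 8.15 in P6 cerebellum. The tumors formed a narrow group below P6 and also below the adult cerebellum, which was at 6.90. The difference from P6 was -1.54 (SE 0.19, adjusted p = 0.00341) and passed with any single tissue array left out. Dll3 went the other way in level but not in the test. Its values were 10.54, 8.98 and 10.03 in MB, against 8.75 and 8.97 in P6 cerebellum, so that MB replicate 2 was level with the higher P6 sample. The difference of 0.99 (SE 0.40, adjusted p = 0.164) passed only without that tumor (1.42, adjusted p = 0.0108). In the adult cerebellum Dll3 was at 6.13, the lowest of all 24 arrays for this probe set. Jag1 was at 6.75, 7.23 and 7.22 in MB, against 6.74 and 6.85 in P6 cerebellum. The 2 groups overlapped, and the difference of 0.27 had a 95% interval of -0.27 to 0.80.

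The promoter of Dll3 is shown because Dll3 had the widest change of the 8 genes in RAS cells. It was searched for the E-box, CANNTG, which bHLH factors bind, and binding was not tested. The window runs from 250 bases before to 50 bases after the annotated start, chr7:28301736-28302035 on the minus strand of GRCm38.p6 (RefSeq), with the E-boxes in capitals.
Dll3: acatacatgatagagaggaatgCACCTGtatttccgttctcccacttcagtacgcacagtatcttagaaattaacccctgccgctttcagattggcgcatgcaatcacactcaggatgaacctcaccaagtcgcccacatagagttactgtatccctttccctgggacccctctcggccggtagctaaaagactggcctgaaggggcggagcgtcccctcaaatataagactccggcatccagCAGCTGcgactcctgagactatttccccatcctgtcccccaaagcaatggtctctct
At least 1 E-box on either strand was found in 72.3% and at least 2 in 39.6% of the 32851 windows of this length in the table, and these matches are a description of the letters only.

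Lfng, the enzyme that modifies Notch, was at 7.92, 7.88 and 8.0 in MB, against 7.69 and 7.51 in P6 cerebellum and 7.61 in the adult. All 3 tumors lay above the normal samples by a small margin, and the difference from P6 of 0.34 did not pass (SE 0.12, adjusted p = 0.117).

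Hes5 showed the widest gap between tumors and P6 cerebellum among the 8 genes. Its log2 levels were 6.76, 7.04 and 6.87 in MB, against 10.39 and 10.35 in P6 cerebellum. The tumors lay more than 3 log2 units below P6 and close to the adult cerebellum, which was at 6.56. The difference from P6 was -3.48 (SE 0.58, adjusted p = 0.0131), and the second Hes5 probe set also fell, by 2.02 (adjusted p = 0.0207). The SE rests on a spread shared by all groups of the fit, among them parental line means of 7.17, 9.01 and 6.82. Within groups the SD was 0.14 in the 3 MB and 0.03 in the 2 P6 samples, so the SE and p-value are not a measure of those alone. With 1 P6 array left out the fit had a single P6 sample, and the call was lost while the difference stayed near the same size (-3.46 with adjusted p = 0.0982 without replicate 1, and -3.50 with adjusted p = 0.107 without replicate 2). Pooling adult and P6 cerebella as 1 normal group gave -2.21 (adjusted p = 0.213).

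Hes5 is a direct Notch target, and its promoter and that of Lfng are shown with the longer form of the Rbpj binding site, GTGGGAA on either strand (TTCCCAC where it lies on the other strand), in capitals. The Hes5 window is chr4:154960673-154960972 on the plus strand and the Lfng window is chr5:140607091-140607390 on the plus strand, both of GRCm38.p6 (RefSeq).
Hes5: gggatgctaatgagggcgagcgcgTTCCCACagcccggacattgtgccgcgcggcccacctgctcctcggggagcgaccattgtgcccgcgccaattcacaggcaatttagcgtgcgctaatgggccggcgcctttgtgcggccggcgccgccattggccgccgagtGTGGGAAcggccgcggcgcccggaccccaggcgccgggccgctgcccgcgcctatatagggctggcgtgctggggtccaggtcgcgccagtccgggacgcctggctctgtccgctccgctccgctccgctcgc
Lfng: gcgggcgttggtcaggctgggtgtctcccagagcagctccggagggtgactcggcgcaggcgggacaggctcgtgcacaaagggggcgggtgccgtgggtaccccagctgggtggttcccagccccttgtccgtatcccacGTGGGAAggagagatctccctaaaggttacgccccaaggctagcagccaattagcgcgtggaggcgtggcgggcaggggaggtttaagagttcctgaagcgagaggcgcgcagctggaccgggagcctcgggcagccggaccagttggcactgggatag
The Hes5 matches start 226 and 83 bases before the start on which its window was built, and they face opposite ways. The Hes5 gene is listed at 154960626 to 154962372, so that start is an internal one and the whole window lies within the listed gene. The Lfng match starts 109 bases before its annotated start. This site was found in 6.38% of the 32851 windows, and 2 or more in 0.256%. The shorter core TGGGAA, which lies within the longer form, was found in 25.6%, and the Lfng window held 1 more core, on the opposite strand. Windows were listed for 7 of the 8 genes, and those of Notch1, Dll1, Dll3, Jag1 and Hes6 held no match to either form, which says nothing of Rbpj binding elsewhere.

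Hes1, another Notch target, was at 8.14, 7.15 and 9.46 in MB, against 7.44 and 7.94 in P6 cerebellum. The tumors spread on both sides of the P6 samples, and the difference of 0.56 had a 95% interval of -1.02 to 2.14. Hes6 was at 9.5, 10.44 and 10.11 in MB, against 10.32 and 10.49 in P6 cerebellum. The groups overlapped for this gene too, with a difference of -0.39 and an interval of -1.08 to 0.29. Against the single adult cerebellum, where no test was made, the mean MB level was higher by 3.72 for Dll3, by 0.92 for Hes6 and by 0.89 for Jag1, and differed by -1.11 for Notch1 and -0.29 for Dll1.

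Other genes of the pathway were grouped by role. Of 9 other receptors and ligands, 2 fell in MB against P6 cerebellum and 0 rose: the receptor Notch3 fell by 1.94 and Egfl7, an endothelial secreted protein, by 1.24. Of 13 other target genes, Nrarp and Hey2 fell, by 1.66 and 1.00, and the cell cycle gene Ccnd1 rose by 1.09. Of 11 proneural bHLH factors, Atoh1 rose by 1.91, Tcf4 rose by 0.66 and Neurog2 fell by 3.21. Dtx1 was the single call among 21 processing and modifying enzymes (0.93), and Spen (0.97) and Cir1 (0.90) the 2 calls among 13 nuclear factors and corepressors. List medians were -0.52, 0.18, 0.14, 0.21 and 0.29 in that order, against 0.05 over all genes.

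Cell type markers also changed between MB and P6 cerebellum, in both directions. Of 7 endothelial markers, 5 fell in MB, with a summed intensity of 612 to 1206 in MB against 6391 to 6476 in P6 cerebellum. Of 9 astrocyte and Bergmann glia markers, 4 fell and 1 rose, with sums of 6394 to 6822 in MB against 55540 to 56025 in P6 cerebellum. Of 5 pericyte markers, 2 fell, with sums of 1163 to 2059 in MB against 5130 to 5141 in P6 cerebellum. Of 7 stem and progenitor markers, Sox2 fell by 3.02 and the others were not called, with sums of 5751 to 7147 in MB against 13842 to 14194 in P6 cerebellum. All 4 Purkinje cell markers and 1 of 5 oligodendrocyte lineage markers fell. Of 7 microglial and macrophage markers 4 rose and 0 fell, among them C1qb (1.76) and Aif1 (1.38), with sums of 5133 to 8017 in MB against 3597 to 4732 in P6 cerebellum. Of 8 granule neuron precursor markers, Gli1 (1.67), Barhl1 (1.91) and Atoh1 rose and 0 fell, with sums of 44464 to 49309 in MB against 36957 to 40070 in P6 cerebellum. The part of these cells in the lower Notch1, Dll1 and Hes5 levels was not tested.

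The parental lines were next compared with the tumors and with P6 cerebellum, with 1 mean per line. Notch1, Dll1, Dll3 and Jag1 were higher in the lines than in primary MB, by 6.87-fold, 4.06-fold, 3.36-fold and 5.32-fold. These were 4 calls of 8, beside 20.6% of all genes called, 12.4% higher and 8.19% lower, and the median difference of the 8 genes was 1.31 against 0.03 over all genes. Against P6 cerebellum, Dll3 and Jag1 rose by 2.74 (SE 0.40, adjusted p = 0.00429) and 2.68 (SE 0.23, adjusted p = 0.000435) and Hes5 fell by 2.70 (SE 0.58, adjusted p = 0.0171). That is 3 calls of 8 beside a background of 25.6% of all genes, with 14.6% higher and 11% lower. Centring each array on its median shifted the median of all genes by -0.23 in the comparison with MB and by -0.12 in that with P6 (0.11 in MB against P6), and the calls named here were kept.

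For the receptor, the 8 parental arrays ran from 10.45 through a median of 10.87 to 11.21, against 7.57 to 9.05 in MB and 10.01 to 10.30 in P6 cerebellum. All 8 lay above every tissue sample. The difference in Notch1 was 2.78 from MB (SE 0.37, adjusted p = 0.00443), whereas that from P6 was 0.79 and did not pass (SE 0.41, adjusted p = 0.199). The second Notch1 probe set gave 1.70 against MB (adjusted p = 0.00358) and 0.92 against P6 (adjusted p = 0.0283).

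Among the ligands, Dll1 ran from 7.19 through 8.98 to 9.53 in the parental arrays, against 6.53 to 6.67 in MB and 8.15 in both P6 samples. Every parental array was above every tumor, while SMB21 replicate 1 at 7.19 and SMB55 replicate 1 at 7.77 were below P6. The difference from MB was 2.02 (SE 0.17, adjusted p = 0.000899), and that from P6 was 0.48 (SE 0.19, adjusted p = 0.099). Dll3 ran from 11.25 through 11.54 to 11.92, above all tissue samples, with a difference of 1.75 from MB (SE 0.36, adjusted p = 0.0178). The Dll3 parental levels were close together in the 3 lines, with means of 11.57, 11.73 and 11.50 in SMB21, SMB55 and SMB56. Jag1 ran from 8.73 through 9.57 to 10.13, against 6.75 to 7.23 in MB, and differed by 2.41 (SE 0.20, adjusted p = 0.000941). The second Jag1 probe set was also called but gave a smaller difference, of 0.72 from MB (adjusted p = 0.0206) and 1.02 from P6 (adjusted p = 0.00768). Tumor and P6 levels of Jag1 overlapped, so that the lines stood apart from both.

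Of the Hes genes, read from their brightest probe sets, Hes5 against P6 cerebellum was the 1 call. Hes5 in parental lines was at 6.62 to 9.17, against 6.76 to 7.04 in MB and 10.35 to 10.39 in P6 cerebellum, and all lines lay below P6. It differed by 0.78 from MB, which did not pass (adjusted p = 0.325). Without either P6 array the Hes5 call against P6 was lost (adjusted p = 0.104 without replicate 1 and 0.103 without replicate 2) at differences of -2.68 and -2.72. Hes1 at 8.18 to 10.32 was above both P6 samples, with a difference of 1.44 that did not pass (SE 0.67, adjusted p = 0.157), and it differed from MB by 0.88 (adjusted p = 0.332). Hes6 differed by 0.43 from P6 (adjusted p = 0.309) and by 0.83 from MB (SE 0.26, adjusted p = 0.0647), and the difference from MB passed without MB replicate 2 (1.04, adjusted p = 0.0352). Its second probe set was called higher against both MB (1.31, adjusted p = 0.0103) and P6 (0.99, adjusted p = 0.0286). Lfng differed by -0.27 from MB with an interval of -0.52 to -0.02 and was not called (adjusted p = 0.116). It was called lower when arrays were centred on their medians (-0.50, adjusted p = 0.0252) or quantile normalised (-0.49, adjusted p = 0.0274). From P6 it differed by 0.07, with an interval of -0.21 to 0.35.

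Of the wider lists, Dner, a Notch ligand of neurons, fell in parental lines by 1.83 against MB and by 2.26 against P6 cerebellum, and Notch3 fell by 1.56 against P6. The proneural factors Neurod1 and Neurod6 fell against both, with differences of -3.37 and -4.03 from MB and of -3.23 and -3.38 from P6, while Atoh1 rose by 2.19 against P6. Among the enzymes, 2 rose and 2 fell against MB, among them the protease Adam10 (-0.79) and the gamma-secretase gene Psen2 (0.74), and against P6 the ubiquitin ligases Mib1 rose by 1.17 and Fbxw7 fell by 1.78. No target gene of 13 was called against MB, and against P6 Ccnd1 rose by 0.86 and Nrarp and Gfap fell by 1.52 and 1.35. List medians against MB lay between -0.20 and 0.29, beside 0.03 over all genes. The parental cultures held summed endothelial markers of 297 to 463 and microglial markers of 221 to 284, against 612 to 1206 and 5133 to 8017 in MB. Against MB, 3 of 7 endothelial, 6 of 7 microglial, 3 of 5 pericyte, 2 of 9 astrocyte and Bergmann glia, 2 of 8 granule neuron precursor and 1 of 4 Purkinje cell markers fell, and of 7 stem and progenitor markers Nes (0.93) and Sox2 (2.61) rose. Against P6 cerebellum, 7 of 7 endothelial, 4 of 4 Purkinje cell, 6 of 7 microglial, 3 of 5 pericyte and 6 of 9 astrocyte and Bergmann glia markers fell (1 of these 9 rose), and the last list had sums of 1676 to 16568 in parental lines against 55540 to 56025 in P6. The part of those cells in these differences was not tested.

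**Figure D2:**
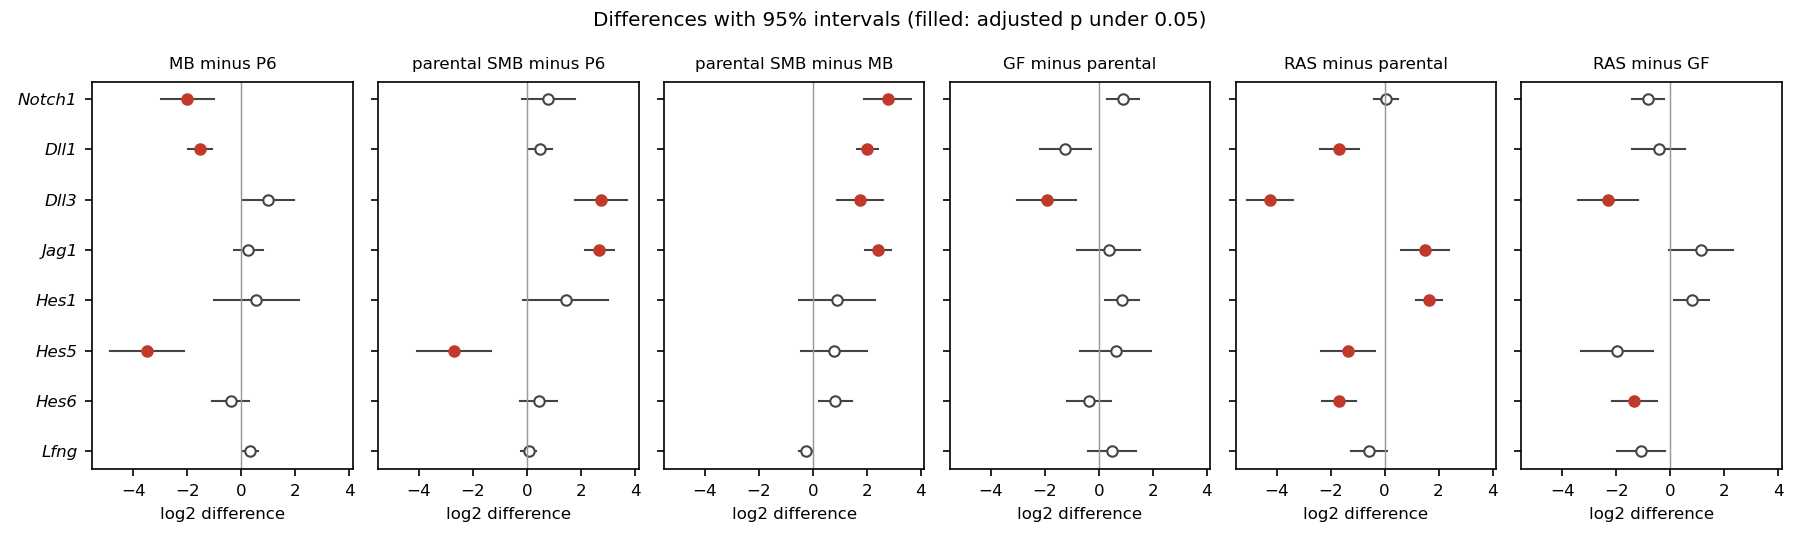
Log2 difference of each gene in the comparisons of tissues and of treatments, with 95% intervals from limma and filled points for adjusted p under 0.05. Dll3 has the most negative difference in RAS against parental cells (-4.24), and Hes5 the most negative in MB against P6 cerebellum (-3.48).

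The comparison of RAS transformed with parental cells asked what RAS transformation does to cells of these lines. Dll1, Dll3, Hes5 and Hes6 were lower in RAS cells and Jag1 and Hes1 were higher, while Notch1 and Lfng did not pass the test. Dll3 showed the greatest change of the 8 genes, 18.9-fold lower, followed by Hes6 and Dll1 at 3.24-fold and 3.19-fold lower, Hes1 at 3.11-fold higher, Jag1 at 2.82-fold higher and Hes5 at 2.58-fold lower. The 6 calls of 8 stand beside 32.1% of all genes called, 14.1% higher and 17.9% lower. The median difference of the 8 genes was -0.98, against -0.05 over all genes.

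Notch1 itself ran from 10.20 through 10.85 to 12.08 in RAS cells, against 10.45 through 10.87 to 11.21 in parental cells. The RAS range enclosed the parental one, and the difference was 0.06 with a 95% interval of -0.38 to 0.51. Its second probe set gave 0.27 (adjusted p = 0.194).

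The ligands went in opposite directions. Dll3 had log2 levels of 6.60, 7.06 and 6.81 in SMB21 RAS, 7.03 and 7.63 in SMB55 RAS and 8.34 and 8.30 in SMB56 RAS. The parental levels of Dll3 were 11.25, 11.91, 11.37 and 11.74 in SMB21, 11.54 and 11.92 in SMB55, and 11.53 and 11.47 in SMB56. The groups were nearly 3 log2 units apart at their closest, with the SMB56 RAS cultures the highest of the transformed ones. The difference was -4.24 (SE 0.39, adjusted p = 3.88e-06). In RAS cells Dll3 fell below the P6 level, to a range that lies above only the adult cerebellum.

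Dll1 was at 6.69, 7.08 and 6.56 in SMB21 RAS, 6.92 and 7.41 in SMB55 RAS and 7.13 and 7.37 in SMB56 RAS. The parental levels of Dll1 were 7.19, 9.26, 9.31 and 9.53 in SMB21, 7.77 and 8.72 in SMB55, and 9.25 and 8.42 in SMB56. SMB21 parental replicate 1, at 7.19, fell into the RAS range, and every other parental array lay above it. The difference was -1.67 (SE 0.34, adjusted p = 0.0018) with that array and -1.87 (adjusted p = 0.000371) without it.

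Jag1 rose, but not in every culture. It was at 11.20, 9.05 and 9.68 in SMB21 RAS, 12.29 and 12.16 in SMB55 RAS and 11.54 and 11.60 in SMB56 RAS. The parental levels of Jag1 were 8.73, 9.83, 10.13 and 10.10 in SMB21, 9.05 and 9.14 in SMB55, and 9.31 and 9.97 in SMB56. The RAS arrays of SMB55 and SMB56 all lay above every parental array, whereas SMB21 RAS replicates 2 and 3 lay within the parental range. The difference was 1.5 (SE 0.42, adjusted p = 0.013), and it was 0.89 without SMB55 (adjusted p = 0.186) and 1.34 without SMB56 (adjusted p = 0.1). The second Jag1 probe set rose by 1.3 (adjusted p = 0.0081).

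Lfng ran from 6.06 through 7.26 to 7.78 in RAS cells, against 7.07 through 7.59 to 8.93 in parental cells. The groups overlapped, with the 3 SMB21 RAS cultures at 6.06, 6.50 and 7.09 among the lowest. The difference of -0.59 did not pass (SE 0.31, adjusted p = 0.169), while the second, dimmer Lfng probe set fell by 0.34 (adjusted p = 0.0345).

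Of the effectors, Hes1 was at 11.23, 10.98 and 10.81 in SMB21 RAS, 11.17 and 11.03 in SMB55 RAS and 10.41 and 10.66 in SMB56 RAS. The parental levels of Hes1 were 9.46, 10.32, 9.94 and 9.81 in SMB21, 8.49 and 9.18 in SMB55, and 9.16 and 8.18 in SMB56. All 7 RAS arrays lay above all 8 parental arrays. The difference was 1.64 (SE 0.23, adjusted p = 9.62e-05), and Hes1 was the only one of the 8 genes still called after each line and treatment was averaged to 1 value.

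Hes5, the other Notch target, was at 6.07, 5.92 and 5.94 in SMB21 RAS, 5.85 and 6.28 in SMB55 RAS and 6.32 and 7.45 in SMB56 RAS. The parental levels of Hes5 were 7.36, 7.01, 7.04 and 7.28 in SMB21, 8.85 and 9.17 in SMB55, and 6.62 and 7.03 in SMB56. The groups overlapped through SMB56, where RAS replicate 2 was above both parental arrays and replicate 1 below them. The difference of -1.36 (SE 0.47, adjusted p = 0.0371) was near the threshold. It was lost without any one of SMB21 parental replicates 1 to 4, SMB55 parental replicates 1 and 2, SMB55 RAS replicates 1 and 2 and SMB56 RAS replicate 1, with adjusted p between 0.0555 and 0.0851. The second Hes5 probe set fell by 1.05 (adjusted p = 0.00638).

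Hes6 ran from 8.18 through 9.12 to 10.01 in RAS cells, against 10.26 through 10.88 to 11.44 in parental cells. All RAS arrays lay below all parental arrays, the SMB55 cultures at 8.18 and 8.34 lowest. The difference was -1.70 (SE 0.29, adjusted p = 0.000577), and the second probe set fell by 1.55 (adjusted p = 0.00109).

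Other parts of the pathway moved in both directions in RAS cells. Of 9 other receptors and ligands, 2 rose, the non-canonical ligand Dlk1 by 2.47 (SE 0.55) and Notch3 by 1.35 (SE 0.32), and 0 fell. Of 21 enzymes, 4 rose and 5 fell, led by the sheddase Adam10 (1.10), which cuts Notch at the cell surface, and by Dtx1 (-2.03), Numbl (-0.98) and Mfng (-1.68), a relative of Lfng. Of 13 nuclear factors, 2 rose and 3 fell, with Rbpj itself at 0.55 (adjusted p = 0.0104), Tle2 at 1.13, Tle4 at -1.14 and Ctbp1 at -0.47. Of 13 other targets, Cdkn1a rose by 2.03, Ccnd1 by 1.10 and Hey2 by 1.06, and 0 fell. Of 11 proneural factors, 1 rose and 5 fell, with Atoh1 at -6.45 (SE 0.59, adjusted p = 3.71e-06), Neurod1 at -4.28 and Neurod6 at -2.33. The list medians were -0.09, -0.08, -0.28, -0.01 and -0.89 in the order given, against -0.05 over all genes. The plot of the wider lists shows each measured gene.

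**Figure D3:**
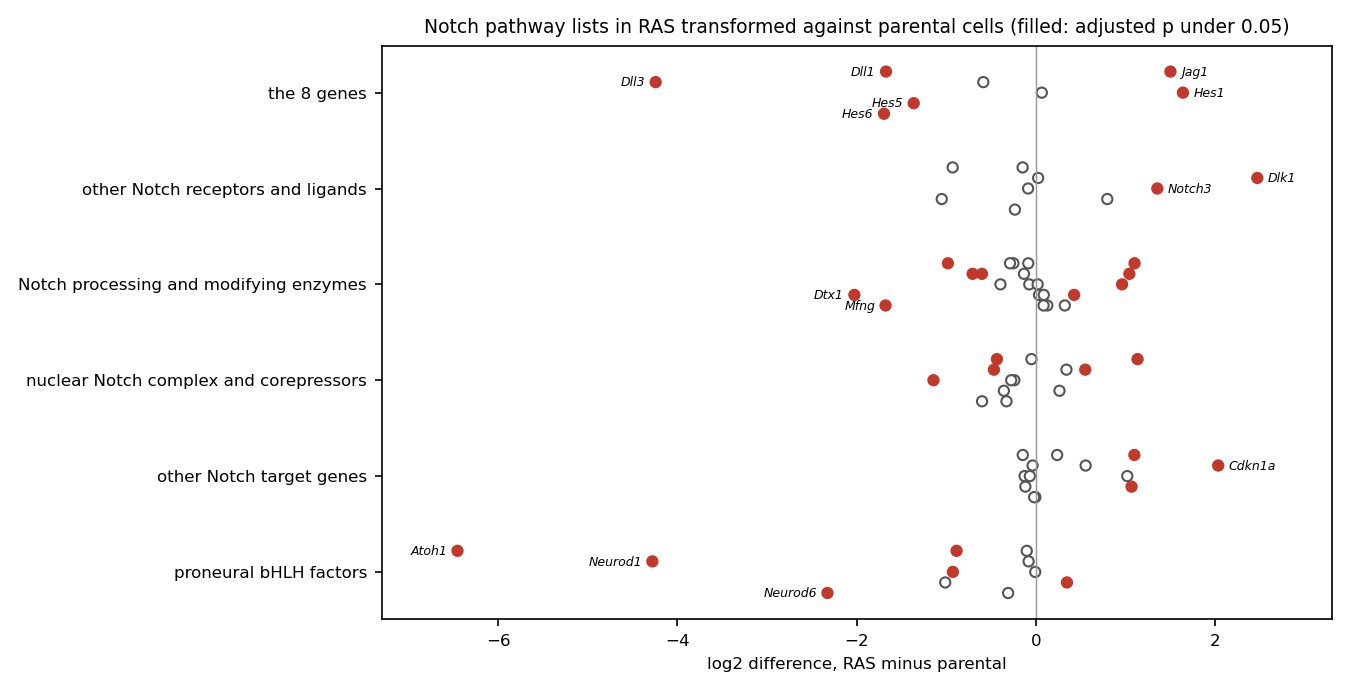
Log2 difference, RAS minus parental, of the 8 genes and of 5 lists of Notch pathway genes, with 1 point per gene and filled points for adjusted p under 0.05. Atoh1 (-6.45), Neurod1 (-4.28) and Dll3 (-4.24) lie farthest to the left, and Dlk1 (2.47) farthest to the right.

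Granule neuron precursor markers were lower in RAS cells, where 7 of 8 fell and 0 rose, with summed intensities of 2629 to 14037 against 16659 to 30371 in parental cells. Within SMB21, SMB55 and SMB56, 4, 6 and 8 of these 8 markers fell, with list medians of -1.87, -3.08 and -3.16. In the same order Dll3 differed by -4.75, -4.40 and -3.18, Dll1 by -2.05, -1.08 and -1.58, and Hes6 by -1.58, -2.57 and -1.07. Of 7 stem and progenitor markers, Vim and Nes rose, by 1.90 and 1.73, and Msi1 and Prom1 fell, with sums of 17718 to 38128 in RAS cells against 7663 to 20663 in parental cells. Of 5 pericyte markers, 3 rose, with sums of 1322 to 6541 in RAS cells against 246 to 4683 in parental cells, and of 7 endothelial markers Flt1 and Kdr rose, by 2.41 and 0.48. Pericyte calls differed by line, with 3 higher in SMB21, 1 higher and 1 lower in SMB55, and 1 higher in SMB56. A moderated F test called the RAS response as differing between lines for Pdgfrb, Rgs5 and Kcnj8 (adjusted p = 0.00315, 0.0355 and 0.0428). The astrocyte and Bergmann glia list had 1 gene called higher, Gja1 (4.89), and sums of 4180 to 26922 in RAS cells against 1676 to 16568 in parental cells. The part of such cells or states in the Notch gene differences was not tested.

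Growth factor culture was compared with parental cells to see how far the same genes move without RAS. EGF, bFGF, heparin and the time in that culture cannot be told apart here. Of the 8 genes, 1 was called: Dll3 fell by 1.93 (SE 0.51, adjusted p = 0.0304), beside 8.93% of all genes called, 3.97% higher and 4.96% lower. Notch1 was at 11.77, 11.39 and 12.46 in the GF cultures of SMB21, SMB55 and SMB56, against 10.45 to 11.21 in parental cells. All 3 GF arrays were above all 8 parental arrays for Notch1, yet the difference of 0.89 was just outside the threshold (SE 0.28, adjusted p = 0.0564). It passed without SMB55 GF (1.18, adjusted p = 0.0283), SMB21 parental replicate 2 (0.96, 0.0451), SMB21 RAS replicate 1 (0.91, 0.0473) or SMB55 RAS replicate 2 (0.92, 0.00667), and the second Notch1 probe set was called (0.86, adjusted p = 0.0173).

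Dll3 was at 8.82, 11.94 and 8.56 in the GF cultures of SMB21, SMB55 and SMB56, against 11.25 to 11.92 in parental cells. SMB21 and SMB56 stood more than 2 log2 units below every parental array, and SMB55 GF was at the top of the parental range. The call was lost without SMB21 GF (-1.59, adjusted p = 0.174), SMB56 GF (-1.19, adjusted p = 0.242) or SMB21 parental replicate 4 (-1.86, adjusted p = 0.0503). Dll1 was at 6.68, 8.13 and 7.64, against 7.19 to 9.53 in parental cells, with SMB21 GF below all of them. Its difference of -1.24 did not pass (SE 0.45, adjusted p = 0.103) but did without SMB21 parental replicate 1 (-1.41, adjusted p = 0.0308). Jag1 was at 9.82, 9.92 and 10.29, against 8.73 to 10.13 in parental cells, and differed by 0.37 with an interval of -0.80 to 1.54. Lfng was at 8.82, 8.16 and 7.67, within the parental range of 7.07 to 8.93, and differed by 0.49 (adjusted p = 0.544).

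Among the effectors, Hes1 was at 10.93, 9.29 and 9.88 in GF cultures of SMB21, SMB55 and SMB56. Each of the 3 lay above its own line's parental arrays, and the overall difference of 0.85 did not pass (SE 0.30, adjusted p = 0.091), although it did without SMB55 GF (1.18, adjusted p = 0.0358). Hes5 was at 5.77, 10.58 and 8.72. SMB21 GF was below its line's parental arrays (7.01 to 7.36), while SMB55 GF and SMB56 GF were above theirs (8.85 to 9.17 and 6.62 to 7.03). Hes6 was at 11.47, 10.72 and 9.11, with SMB56 GF more than 1 log2 unit below its 2 parental arrays and SMB21 GF just above the highest of its 4. The pooled differences of 0.62 for Hes5 and -0.37 for Hes6 did not pass (adjusted p = 0.623 and 0.653).

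A test of whether the GF response differed between lines, added after the values were seen and resting on 1 GF array per line, called Dll3 (adjusted p = 0.00936) and Hes5 (adjusted p = 0.0169), beside 1.4% of all genes. The second Hes5 probe set was not called in this test (adjusted p = 0.437). The GF minus parental values by line were -2.75, 0.20 and -2.94 for Dll3 and -1.41, 1.57 and 1.89 for Hes5 in SMB21, SMB55 and SMB56. Of the wider lists, Notch3 was the 1 call among 9 receptors and ligands (2.01), Nrarp the 1 among 13 targets (1.85) and Atoh1 the 1 among 11 proneural factors (-4.59). The GF minus parental values of Atoh1 lay up to 5.36 apart between lines, so that the pooled value does not describe each line. Of 21 enzymes 2 rose and 3 fell, among them Adam17 (1.32) and Dtx1 (-2.28), and of 13 nuclear factors 2 fell, Cir1 (-0.63) and Ctbp1 (-0.40). List medians lay between -0.35 and 0.18, against -0.01 over all genes. Of 8 granule neuron precursor markers, 4 fell in GF culture and 0 rose, and their summed intensity was 4915 to 14650 in GF cells, against 16659 to 30371 in parental cells. Astrocyte and Bergmann glia markers summed to 17594 to 33892 in GF cells, against 1676 to 16568 in parental cells, with 1 of 9 called higher. Stem and progenitor markers summed to 26686 to 31331 in GF cells, against 7663 to 20663 in parental cells, with 1 of 7 called higher, Vim (1.66), and 1 lower. The sums did not overlap for any of these 3 lists, whereas those of endothelial, pericyte, microglial, Purkinje cell and oligodendrocyte lineage markers did. Of 7 endothelial markers 1 was called higher, and of 4 Purkinje cell markers 1 was called lower. The part of these shifts in the Notch gene values was not tested.

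RAS cells were set against GF cells, with the same parental arrays in the fit. Of the 8 genes, Dll3 and Hes6 were lower in RAS cells, by 2.32 (SE 0.52, adjusted p = 0.0136) and 1.33 (SE 0.39, adjusted p = 0.0421), beside 11.2% of all genes called, 5.71% higher and 5.45% lower. Dll3 ran from 6.60 to 8.34 in RAS cells, against 8.56 to 11.94 in GF cells, and the ranges did not meet. In SMB56, however, RAS and GF were only 0.24 apart in Dll3, while they were 4.61 apart in SMB55, whose GF culture had kept the parental level. Without SMB55 GF the difference was -1.25 (adjusted p = 0.069). For Hes6 the RAS range of 8.18 to 10.01 overlapped the GF range of 9.11 to 11.47 through SMB56 GF. The Hes6 call was lost without SMB21 GF (-0.99, adjusted p = 0.177), SMB55 GF (-1.0, 0.223) or any one of SMB21 parental replicates 2, 3 and 4, SMB21 RAS replicates 1 and 3, SMB55 RAS replicates 1 and 2 and SMB56 RAS replicate 1 (adjusted p from 0.0503 to 0.0778). Hes5 ran from 5.85 to 7.45 in RAS cells, against 5.77, 10.58 and 8.72 in GF cells, and the difference of -1.99 was just outside the threshold (SE 0.63, adjusted p = 0.0529). It passed without SMB21 GF (-3.12, adjusted p = 0.00612), SMB56 parental replicate 1 (-1.97, 0.0465) or SMB56 RAS replicate 2 (-2.23, 0.0365), and the second Hes5 probe set was called lower (-1.40, adjusted p = 0.0204). Notch1 differed by -0.83 (SE 0.28, adjusted p = 0.0668), and passed without SMB55 RAS replicate 2 (-1.05, adjusted p = 0.00608). The ranges of the other 4 genes overlapped and none was called, with differences of -0.44 for Dll1 (adjusted p = 0.552), 1.13 for Jag1 (0.194), 0.79 for Hes1 (0.0989) and -1.08 for Lfng (0.103). The second, dimmer Lfng probe set was called lower (-0.52, adjusted p = 0.0393). Of the wider lists, 0 genes fell in RAS against GF cells. The ligand Dlk1 rose by 2.66 (1 of 9), the enzymes Adam10, Itch and Numb by 0.65, 0.84 and 0.67 (3 of 21), the nuclear factors Tle2 and Rbpj by 1.12 and 0.65 (2 of 13) and the target Ccnd1 by 0.91 (1 of 13).

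The 3 lines were then read one at a time. In parental cells, Hes5 and Hes1 differed between lines, beside 5.08% of all genes. Parental Hes5 averaged 7.17 in SMB21 (SD 0.18, n = 4), 9.01 in SMB55 (SD 0.22, n = 2) and 6.82 in SMB56 (SD 0.30, n = 2), with SMB55 above every array of the other lines (adjusted p = 0.00483). That call was lost without SMB55 parental replicate 2 (adjusted p = 0.0512), and the second Hes5 probe set missed the threshold (adjusted p = 0.0552). Parental Hes1 averaged 9.88 in SMB21, 8.83 in SMB55 and 8.67 in SMB56, with SMB21 above all arrays of the other lines. The Hes1 call lay at the threshold (adjusted p = 0.0488). It was lost in 15 of 25 alternatives, among them the removal of any one of SMB21 parental replicates 2 to 4, SMB55 parental replicates 1 and 2 and all 7 RAS arrays, with adjusted p between 0.057 and 0.133. The other 6 genes were not called.

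**Figure D4:**
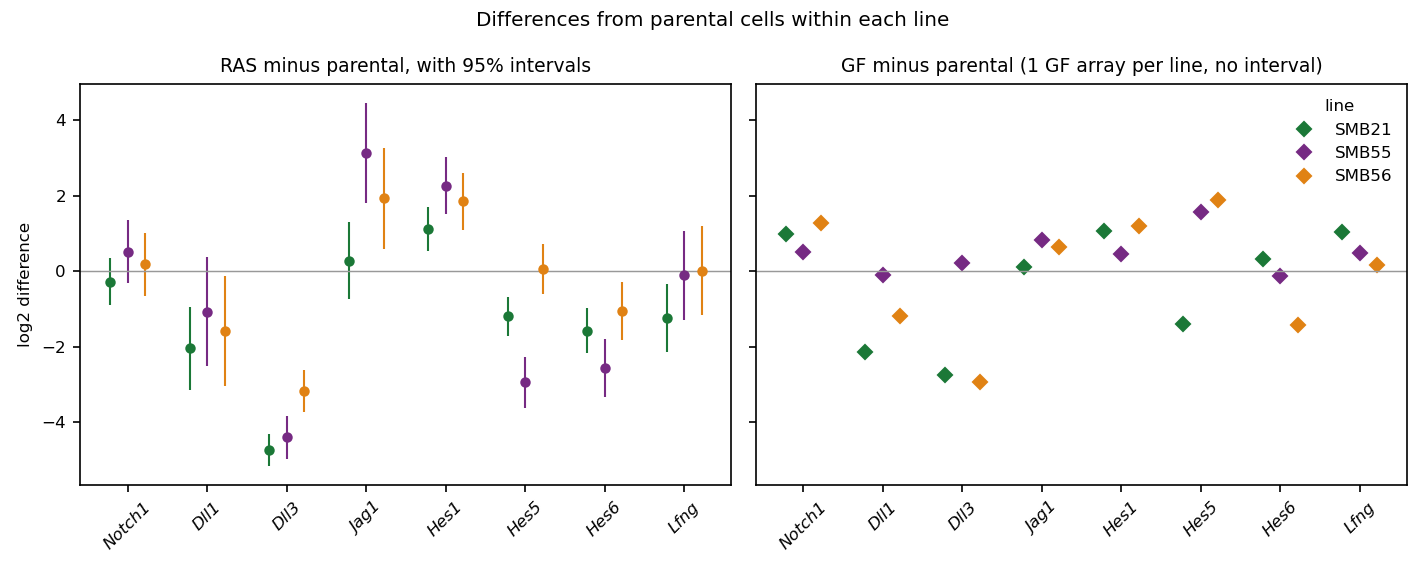
Log2 difference of each gene within SMB21, SMB55 and SMB56, with 1 coloured point per line, for RAS minus parental cells with 95% intervals from limma (left) and GF minus parental cells without intervals, from 1 GF array per line (right). For Hes5 the RAS points of SMB21 (-1.20) and SMB55 (-2.94) lie below 0 and that of SMB56 (0.06) lies at 0, and for Dll3 the RAS points of all 3 lines lie below 0.

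RAS against parental cells within a line gave 5 calls of 8 in SMB21, 5 in SMB55 and 2 in SMB56, beside 19.4%, 21.5% and 12% of all genes. By direction the background was 9.1% higher and 10.3% lower in SMB21, 10.6% higher and 10.9% lower in SMB55, and 6.14% higher and 5.9% lower in SMB56. Where leaving out an array left a single one in a group, that array was assumed to vary like the other groups. Dll3 was called lower in each line, at -4.75 in SMB21 (SE 0.20), -4.40 in SMB55 (SE 0.26) and -3.18 in SMB56 (SE 0.26), with adjusted p of 2e-07, 4.63e-06 and 0.00011. Hes1 was called higher in each, by 1.13 (SE 0.26), 2.27 (SE 0.34) and 1.86 (SE 0.34), with adjusted p of 0.0119, 0.00119 and 0.00789. The Hes1 calls were lost without SMB21 RAS replicate 1 in SMB21 (1.01, adjusted p = 0.0513) and without SMB56 RAS replicate 2 in SMB56 (1.73, adjusted p = 0.0706).

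Hes5 fell by 1.20 in SMB21 (SE 0.23, adjusted p = 0.00475) and by 2.94 in SMB55 (SE 0.31, adjusted p = 0.000166). In SMB56 it differed by 0.06, with an interval of -0.62 to 0.73. Hes6 fell by 1.58 in SMB21 and by 2.57 in SMB55, and differed by -1.07 in SMB56 (adjusted p = 0.0712), where both RAS arrays still lay below both parental ones. Jag1 rose in SMB55 by 3.13 (SE 0.61, adjusted p = 0.00446), and differed by 1.93 in SMB56 (adjusted p = 0.0622) and 0.28 in SMB21 (interval -0.74 to 1.3). The SMB56 difference in Jag1 was called without SMB21 parental replicate 1 (adjusted p = 0.0409), SMB21 RAS replicate 1 (0.0174) or SMB21 RAS replicate 2 (0.0399), and on the second probe set (1.67, adjusted p = 0.0258).

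Dll1 fell by 2.05 in SMB21 (SE 0.50, adjusted p = 0.0153), a call lost without SMB21 RAS replicate 1 (-2.0, adjusted p = 0.0505). It differed by -1.08 in SMB55 and -1.58 in SMB56, with all RAS arrays below their line's parental arrays. Both passed without SMB21 parental replicate 1 (adjusted p = 0.0478 and 0.0184), an array that enters those fits only through the shared spread. Lfng differed by -1.25 in SMB21 (adjusted p = 0.055), -0.11 in SMB55 and 0.01 in SMB56. The SMB21 difference in Lfng passed without SMB21 RAS replicate 3 (-1.51, adjusted p = 0.0413) or SMB21 parental replicate 4 (-1.49, adjusted p = 0.0341). Notch1 was not called in any line, and in SMB55, whose RAS cultures were at 10.70 and 12.08, a fit without replicate 1, with only the higher array left in that group, called it (1.21, adjusted p = 0.0303).

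A direct test of whether the RAS response differed between lines called Hes5 (adjusted p = 0.0115) and Dll3 (adjusted p = 0.0485), beside 3.45% of all genes. The Hes5 call held in all 25 alternatives. Hes5 averaged 5.98, 6.07 and 6.88 in RAS cells of SMB21, SMB55 and SMB56, low levels at which differences are compressed. Its parental means of 7.17, 9.01 and 6.82 also differed between lines. The part of the parental levels and of the low RAS levels in the Hes5 call was not tested. The Dll3 call was lost in 17 of 25, with adjusted p between 0.0505 and 0.149, the highest of these without SMB56 RAS replicate 2. For Jag1 the same test gave adjusted p = 0.11, and 0.0164 without SMB21 RAS replicate 1. The second Hes5 probe set, nearly as bright as the chosen one (mean log2 levels of 7.379 and 7.384), missed the threshold (adjusted p = 0.0689).

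The order of the 6 conditions differed from gene to gene. By group mean, Notch1 ran from GF through RAS, parental, P6 and adult to MB, and of neighbours in that order GF with RAS and RAS with parental overlapped. Dll1 ran from parental through P6, GF, RAS and adult to MB, with overlap of parental with P6, GF with RAS and RAS with the adult sample. Dll3 ran from parental through MB, GF, P6 and RAS to adult, with overlap of MB with GF and GF with P6. Jag1 ran from RAS through GF, parental, MB and P6 to adult, with the 3 cultured groups overlapping in turn and MB with P6, and a gap between parental cells and MB. Hes1 kept the same order as Jag1, and every pair of neighbours overlapped. Hes5 ran from P6 through GF, parental, MB and adult to RAS, where MB with adult was the pair that did not overlap and the GF cultures spanned 5.77 to 10.58. Hes6 ran from parental through GF, P6, MB and RAS to adult and Lfng from GF through MB, parental, adult and P6 to RAS, with every pair of neighbours overlapping in both. These orders are within a probe set, and levels of different genes are not set against each other.

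Over the 12 group means (P6, adult, MB and 3 lines in 3 conditions), Jag1 and Hes1 had a Pearson correlation of 0.87, Notch1 and Jag1 of 0.76, Dll1 and Dll3 of 0.74, and Dll3 and Hes6 of 0.72. Hes1 and Hes5 had one of -0.46. These points share lines and arrays and are a description. The genes most alike over the same 12 means, among 6197 genes at or above the median level, were Aspscr1 (0.95), Dpagt1 and Slc25a39 for Notch1, Smim27 (0.83), Wif1 and Mmachc for Dll1, and Khdrbs3 (0.93), Mad2l2 and Ormdl1 for Dll3. For Jag1 they were Adamts1 (0.96), Dgat1 and Nmt1, and for Lfng Fkbp8 (0.84), Grip1 and Znhit3. For Hes1 they were Pafah1b1 (0.97), Efl1 and Prrc1, for Hes5 Tmem126a (0.93), Mrps11 and Svbp, and for Hes6 Mrpl18 (0.95), Sub1 and Prom1. None of the 8 genes was among the 3 most alike of another.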

How the data were processed

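Total RNA of 24 samples was biotin labelled and hybridised to Affymetrix arrays, per the labels' protocols. Each deposited value is the linear intensity of 1 probe set on 1 array, with array medians of 188.8 to 245.1 in the authors' values. Their summarisation and normalisation methods were not given in the sources used here. The number of arrays limits the precision, and an array has no read depth. Of 22690 probe sets, 20393 carry 1 gene symbol, 691 several and 1606 none. Control probe sets were left out, and each of 12393 genes was represented by its brightest probe set (highest mean of 24 arrays). Log2 values were taken from the deposited intensities after adding 16.

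Tests used limma 3.58.1 in R 4.3.3 (lmFit and eBayes, two-sided), with Benjamini-Hochberg adjustment over all 12393 genes and calls at an adjusted p under 0.05. The tissue fit held 2 P6, 1 adult and 3 MB arrays and 1 mean per parental line. These groups shared the estimate of the spread. The culture fit held 18 arrays with treatment and line as additive terms, and 9 means of line by treatment for values within lines, where differences between lines were tested by a moderated F test. The single adult cerebellum was given as values. The code was tested on simulated data. Samples were grouped by title.

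The 8 genes, the pathway and marker lists and the tests were chosen with earlier results of these data known. All 8 genes are named in each comparison of tissues and of treatments. Of each wider list, the called genes with the smallest p, at most 4, could be named, and the 3 genes most correlated with each of the 8 were named, passing over clone names. The E-box and Rbpj searches covered both strands of the promoter windows. Alternatives changed the pseudocount, scaling, filter, probe set rule, prior, grouping and block and left out each array and line. Titles number the replicates. Deviations of same-numbered RAS and parental arrays correlated between -0.15 and -0.02, and those of MB and P6 arrays were -0.03 and 0.00, so that the numbers were not taken to pair the samples.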

Additional observations from a re-analysis of the deposited data

Results flagged for a closer look

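Among 24 sets of 4, 8 or 7 arrays screened (each of the 8 genes in SMB21 parental, all parental and all RAS arrays), 2 held an array that stood apart. The SMB21 parental sets lie within the parental ones, and the parental and RAS sets mix 3 lines. A chance rate of about 1 in 20 per set therefore does not hold here, and the count is a description. Dll1 in SMB21 parental replicate 1 was at a log2 level of 7.19, and the other 3 arrays of that group were at 9.26 to 9.53. Hes5 in SMB56 RAS replicate 2 was at 7.45, and the other 6 RAS arrays were at 5.85 to 6.32.

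The response to RAS differed between the 3 lines for Dll3 (moderated F test in limma, adjusted p = 0.0485) and for Hes5 (adjusted p = 0.0115). RAS minus parental differences were -4.75, -4.40 and -3.18 for Dll3 and -1.20, -2.94 and 0.06 for Hes5 in SMB21, SMB55 and SMB56. In the same order, Hes5 averaged 7.17, 9.01 and 6.82 in parental cells and 5.98, 6.07 and 6.88 in RAS cells. The part of these starting levels and of the low RAS levels in the Hes5 call was not tested. The response to GF culture also differed between lines for Dll3 (adjusted p = 0.00936) and for Hes5 (adjusted p = 0.0169), with 1 GF array per line assumed to vary like the other groups. The second Hes5 probe set was called in neither test (adjusted p = 0.0689 for RAS and 0.437 for GF). Both responses are set against the same parental arrays.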

How the results depend on the processing

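The directions of all calls that have one were kept in the alternatives run. Of 2432 values of the 8 genes under other settings, 2275 kept their side of the threshold, 104 lost a call, 53 gained one and 0 reversed. The tests of differences between lines are among the 2432 but have no direction and could not reverse. Counts of the 8 genes called were 6 for RAS against parental cells (5 to 6 with 1 array left out, 1 with each line and treatment averaged), 3 for MB against P6 (1 to 4 with 1 array left out, 1 with the 3 cerebella as 1 group, 1 with the P6 arrays averaged) and 2 for RAS against GF (0 to 3 with 1 array left out, 4 with centred arrays, 4 with the mean of the line effects, 0 with averaged arrays, 1 without SMB55). For GF against parental cells the count was 1, with 0 to 3 when 1 array was left out, 0 with averaged arrays, without SMB21 or without SMB56, 2 with centred arrays, with the mean of all probe sets or without the dimmest genes, and 3 with the mean of the line effects or without SMB55. Within SMB21, SMB55 and SMB56 the counts were 5, 5 and 2, with 3 to 6, 5 to 6 and 1 to 4 when 1 array was left out. For the RAS response differing between lines the count was 2, and 1 with centred or quantile normalised arrays, a pseudocount of 64 or a mean trend, and 1 to 2 with 1 array left out. For parental levels differing between lines it was 2, and 1 with a pseudocount of 64, quantile normalisation or the mean of all probe sets, and 0 to 2 with 1 array left out. The cause of these shifts was not tested, except that averaging leaves 9 values in the fit.

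With the replicate number as a block, 0 of the 8 genes were called for GF against parental cells and 0 for RAS against GF, and Hes5 in RAS against parental cells (adjusted p = 0.121) and Notch1 in MB against P6 (adjusted p = 0.175) lost their calls. Crossing the 2 numbers in SMB55, an alternative added after seeing the data because its pairs correlated at -0.15, also gave 0 and 0. Counts over all genes moved by over 1.5 times in several settings. They were 3974 for RAS against parental cells (667 averaged, 2548 without SMB55), 1107 for GF against parental (19 averaged, 243 blocked, 362 crossed, 200 without SMB21, 306 without SMB56, 1835 with the mean of line effects), 1384 for RAS against GF (53, 161 blocked, 158 crossed, 222 without SMB55, 2351 with the mean of line effects), 1361 for MB against P6 (329 with P6 averaged, 415 blocked, 896 with the line as a random block), 3175 for the lines against P6 (952 with P6 averaged) and 2552 for the lines against MB (1373 with 1 group of cerebella, 1686 with 2 groups only or P6 averaged, 1574 without SMB56). Leaving out 1 array gave 341 to 1141 for MB against P6 and 970 to 3698 for the lines against P6, 1606 to 2445 for the lines against MB, 401 (without SMB56 GF) to 1187 for GF against parental and 457 (without SMB55 GF) to 1660 for RAS against GF. Within lines it gave 1228 (without SMB55 parental replicate 1) to 3028 for SMB55, where 2666 were called, and 329 (without SMB56 RAS replicate 2) to 2362 (without SMB56 parental replicate 2) for SMB56, where 1492 were. For differences between lines it gave 190 (without SMB56 RAS replicate 2) to 1230 (without SMB56 parental replicate 2) in the RAS response (428 called), 65 (without SMB21 parental replicate 4) to 339 (without SMB56 parental replicate 2) in the GF response (174 called) and 228 (without SMB21 parental replicate 3) to 1280 (without SMB21 parental replicate 1) in parental levels (630 called). Only 2 P6 cerebella, 1 adult cerebellum and 1 GF array per line limit these comparisons, and probe sets near the lowest intensities, such as Hes5 in RAS cells, give compressed differences.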
